A study of Mus musculus with 24 samples.

Results

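Open chromatin was compared between Utx knockout (KO) and Utx wild-type (WT) bone marrow progenitors that had received a guide RNA vector without a guide. The libraries were 2 from KO cells and 2 from WT cells, taken from 24 samples of the series, of which 22 have a peak list used here. The members are all autosomal ATAC-seq peaks of these 4 libraries, merged where they overlapped or touched into 58010 regions. The KO group is labelled Utx-/- with Cas9 and the WT group Utx+/+ with Cas9. Both are C57BL/6, both carry Cas9 and the empty vector, and both start from lineage-negative (Lin-) bone marrow cells, the fraction that holds haematopoietic stem and progenitor cells. A protocol printed in the labels with the other ATAC set describes the empty-vector and Smarca4 editing as 7 days in semi-solid M3434 medium, 5 days in liquid culture and ATAC-seq 6 days after transduction. Nothing in the labels tells if the replicates come from separate animals or cultures. The p-values therefore measure only the spread between these samples. The age of the mice and the way Utx was deleted are not given in the sources used here.

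Utx, encoded by the X-linked gene Kdm6a, removes methyl groups from lysine 27 of histone H3 and travels with the KMT2C and KMT2D complexes that place H3K4me1 at enhancers. ATAC-seq cuts DNA with a transposase that enters only where nucleosomes are loose, so a peak marks an open promoter, enhancer or other regulatory element. In blood progenitors such elements are held open by factors such as PU.1, GATA2 and RUNX1, which set the choice between myeloid, mast cell, erythroid and lymphoid fates.

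A region with a peak in both WT libraries and in neither KO library was called lost. One with a peak in both KO libraries and in neither WT library was called gained, and one with a peak in all 4 was called kept. Promoters are shown first for 3 genes whose start lay in a lost region and for 2 whose start lay in a gained one. They run from 250 bases before to 50 bases after the annotated start, are 300 bases long and come from RefSeq on GRCm38.p6, which has the coordinates of the mm10 build of the files. Capitals mark matches to the letters CAGCTG (E-box) and GAGGAAG (the type bound by PU.1) on either strand, and a window without capitals holds none of the 8 searched motifs.
Sorl1 promoter window, chr9:42124248-42124547, minus strand: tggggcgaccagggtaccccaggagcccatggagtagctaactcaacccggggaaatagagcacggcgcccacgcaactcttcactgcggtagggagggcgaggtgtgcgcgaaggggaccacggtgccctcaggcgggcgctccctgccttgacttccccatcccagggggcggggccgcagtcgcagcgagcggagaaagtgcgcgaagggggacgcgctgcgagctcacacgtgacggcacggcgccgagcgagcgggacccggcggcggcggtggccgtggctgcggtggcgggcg
Blnk promoter window, chr19:40994172-40994471, minus strand: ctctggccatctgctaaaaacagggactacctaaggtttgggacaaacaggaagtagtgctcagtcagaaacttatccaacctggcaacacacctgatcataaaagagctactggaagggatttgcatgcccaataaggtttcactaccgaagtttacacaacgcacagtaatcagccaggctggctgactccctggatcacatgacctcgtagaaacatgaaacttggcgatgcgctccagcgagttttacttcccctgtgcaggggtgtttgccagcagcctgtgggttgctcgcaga
S100a8 promoter window, chr3:90668821-90669120, plus strand: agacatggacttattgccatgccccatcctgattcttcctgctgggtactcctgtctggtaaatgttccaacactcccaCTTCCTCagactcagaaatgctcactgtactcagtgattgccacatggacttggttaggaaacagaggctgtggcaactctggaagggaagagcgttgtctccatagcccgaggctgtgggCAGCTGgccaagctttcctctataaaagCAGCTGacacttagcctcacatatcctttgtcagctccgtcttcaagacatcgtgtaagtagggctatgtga
Dpyd promoter window, chr3:118561930-118562229, plus strand: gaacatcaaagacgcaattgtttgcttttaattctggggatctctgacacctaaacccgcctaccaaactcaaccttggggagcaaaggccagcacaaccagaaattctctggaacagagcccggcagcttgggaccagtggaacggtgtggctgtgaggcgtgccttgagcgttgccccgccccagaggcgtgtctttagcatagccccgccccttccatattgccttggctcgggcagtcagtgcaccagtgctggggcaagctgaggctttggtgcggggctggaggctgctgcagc
Nox4 promoter window, chr7:87246399-87246698, plus strand: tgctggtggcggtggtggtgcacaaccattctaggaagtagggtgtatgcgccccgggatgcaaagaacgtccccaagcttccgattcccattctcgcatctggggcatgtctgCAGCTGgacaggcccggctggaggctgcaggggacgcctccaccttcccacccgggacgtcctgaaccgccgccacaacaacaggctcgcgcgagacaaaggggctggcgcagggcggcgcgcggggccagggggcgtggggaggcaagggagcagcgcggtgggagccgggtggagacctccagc

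Sorl1 encodes an endosomal sorting receptor. The region over its start, chr9:42123771-42124577, had no peak in either KO library, against peaks of 601 and 807 bp in the WT libraries. Blnk encodes the adaptor that links the B cell receptor to its kinases. Its start lay in chr19:40994032-40994443, again with no KO peak, against 347 and 248 bp in WT libraries. S100a8 encodes a subunit of calprotectin, a granule protein of neutrophils, and its start lay in chr3:90668756-90669602 with no KO peak, against 333 and 847 bp in WT libraries. Each of these regions was thus open in both WT libraries. The start of Dpyd, the first enzyme of pyrimidine breakdown, lay in chr3:118561857-118562883, with peaks of 830 and 872 bp in KO libraries, against none in WT libraries. Nox4, an NADPH oxidase that makes hydrogen peroxide, had 993 and 990 bp of open length over its 2 regions in KO libraries, against 0 and 0 bp in WT libraries. Its gained start is one end of a run of 6 gained regions over 626 kb, with no other region held by both KO libraries between them, that reaches Grm5.

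Among the 258 promoter windows overlapped by a lost region, 6.98% held the ETS family letters CCGGAAG, against 18.9% of the 12183 windows in kept regions and 9.004% of all 31396 autosomal windows. AGATAA, the GATA letters, were in 12.4% of lost windows, 5.66% of kept windows and 11.2% of all windows. GAGGAAG was in 19.8% of lost windows and CAGCTG in 19.8%, against 13.5% and 14.2% of kept windows and 13.4% and 16.3% of all windows. Of the 64 windows in gained regions, 26.6% held CAGCTG, 6.25% AGATAA and 1.56% CCGGAAG, the last being 1 window. The remaining motifs were TGANTCA (AP-1), TGACGTC (CRE), TGTGGTT (RUNX) and TTGCNNA (C/EBP). AP-1 letters were in 10.1% of lost, 6.25% of gained, 4.72% of kept and 7.84% of all windows, and RUNX letters in 8.91% of lost, 3.12% of gained, 3.55% of kept and 5.32% of all windows. CRE letters were in 0.775% of lost, 1.56% of gained, 5.97% of kept and 3.25% of all windows, and C/EBP letters in 32.9% of lost, 28.1% of gained, 30.3% of kept and 36.7% of all windows. All were searched on both strands, and windows of neighbouring starts can overlap. These are shares of letters in windows and show no binding.

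KO libraries held fewer peaks. They had 39380 and 39925 autosomal peaks, against 49696 and 49704 in WT libraries, a mean of 39652.5 ± 385 in KO and 49700 ± 5.66 in WT (SD, n = 2 each; exact permutation test, two-sided p = 0.333, the smallest that 2 against 2 allows). Covered length was 25.1 and 24.9 Mb in KO, against 29.8 and 33.4 Mb in WT, so the groups did not overlap in either measure. In the other ATAC set, WT empty-vector libraries 1 and 2 held 47591 and 40579 autosomal peaks over 29.4 and 24.6 Mb. WT lists of that set thus reached down to about the KO level. Median peak width was 477 and 471 bp in KO and 440 and 500 bp in WT, with overlapping groups (p = 1, exact permutation test). The shared covered length of 2 libraries, as a fraction of their joint length, was 0.790 for the KO pair and 0.734 for the WT pair, and 0.656 to 0.676 between a KO and a WT library. The lists give only start and end of each interval, so sequencing depth is unknown, and a shorter list cannot be told apart from a shallower library. In bulk samples, fewer cells of a type and less open chromatin per cell cannot be told apart either.

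The cells carried open chromatin of stem and progenitor genes. Of 8 stem cell markers, 7 and 7 had a peak within 1 kb of a gene end in KO libraries, against 8 and 7 in WT libraries. The mast cell and basophil markers Fcer1a, Ms4a2 and Cpa3 were open there in all 4 libraries, and Mcpt8 in both WT libraries alone, giving 3 and 3 of 4 in KO, against 4 and 4 in WT. Open megakaryocyte markers numbered 1 and 2 of 4 in KO, against 3 and 3 in WT, and granulocyte markers 0 and 1 of 7 in KO, against 2 and 2 in WT. Erythroid markers numbered 3 and 2 of 5 in KO, against 2 and 3 in WT, and T and NK cell markers 2 and 2 of 5 in KO, against 3 and 3 in WT. Of the erythroid markers, Gata1 and Alas2 are X-linked and were counted as not open in every library, while the regions of this part are autosomal. Of monocyte and macrophage markers 1 of 5 was open in each library, of B cell markers 2 of 4 in each, and of stroma and endothelium markers 1 and 2 of 4 in KO, against 2 and 2 in WT. Elane, Mpo, Ltf, Camp and S100a9 (granulocyte), Csf1r and Lyz2 (monocyte) and Pax5 (B cell) had no peak at a gene end in any library. The part of cell composition in the results was not tested. Kdm6a itself kept its peaks. Of its 5 regions 5 and 5 had a peak in KO libraries, against 3 and 4 in WT libraries, and peaks of this kind do not check the deletion. Gata1, the X-linked erythroid factor, had peaks at 3 and 2 of its 3 regions in KO, against 3 and 3 in WT.

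Of 42656 regions held by both WT libraries, 6656 (15.6%) were lost in KO, and of 34688 held by both KO libraries, 1082 (3.12%) were gained. Kept regions numbered 32197 and the remaining 18075 showed other patterns. Regions with a peak in both WT and exactly 1 KO library numbered 1778 and 2025. With every list trimmed to its widest peaks, down to the length of the shortest list, 2905 regions were lost and 2722 gained. With the wider 50% of each list, which keeps the difference in list length, 3031 were lost and 311 gained. Trimming changes list length and removes narrow peaks at once, and the part of each was not tested. Without WT replicate 1 or 2 the count lost was 11433 or 11304, and without KO replicate 1 or 2 the count gained was 2285 or 2209, since a class then rests on 3 libraries. Without WT replicate 2 the count gained was 2009, against 1582 without WT replicate 1.

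Lost and gained regions were narrow and lay mainly away from gene ends. Their median widths were 333 bp for gained and 380 bp for lost regions, against 737 bp for kept regions, which merge peaks of both groups and are wider partly by construction. In the narrowest of 5 equal classes of peak width 42.8% of WT-held regions were lost and 10.6% of KO-held regions gained, against 0.399% and 0.0432% in the widest class. Within 1 kb of a gene end 4.87% of WT-held regions were lost, against 19.7% farther away, and 0.963% of KO-held regions were gained, against 4.13% farther away. More than 50 kb from any protein-coding gene lay 27.0% of gained, 8.34% of lost and 7.94% of kept regions. Another region of the same class lay within 20 kb of 9.33% of gained, 37.7% of lost and 73.4% of kept regions, which is also the order of the classes by number of regions. The lost share varied little by chromosome, between 13.8% on chromosome 10 and 16.8% on chromosome 6, and the gained share between 1.53% on chromosome 11 and 5.22% on chromosome 14.

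**Figure D1:**
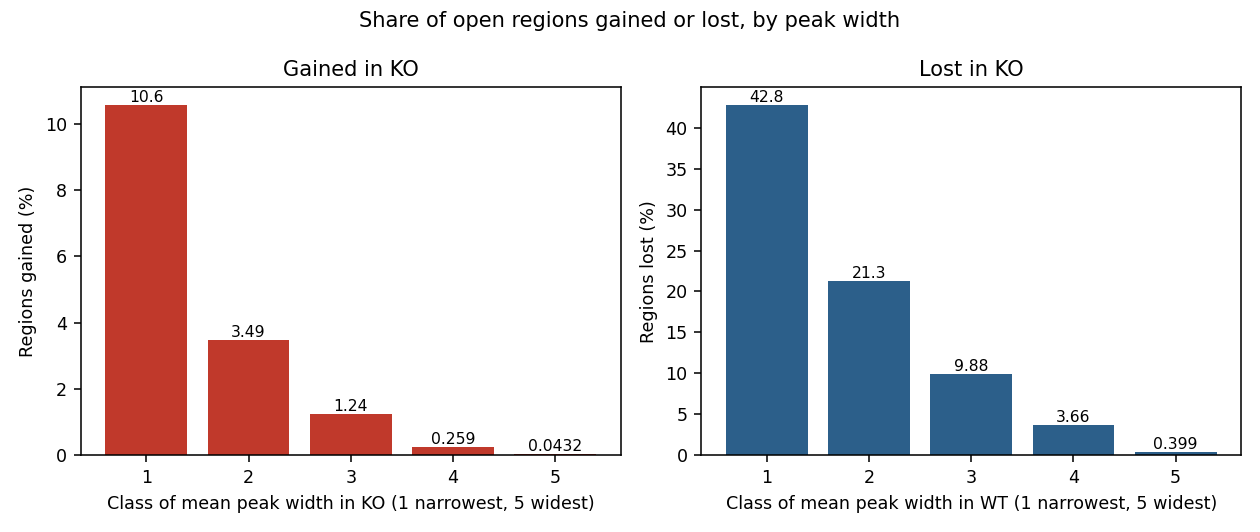
Share of regions gained in Utx KO (left, of regions held by both KO libraries) and lost in Utx KO (right, of regions held by both WT libraries), in percent, in 5 equal classes of mean peak width. The bars fall from 10.6% to 0.0432% for gained regions and from 42.8% to 0.399% for lost regions, narrowest to widest.

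Among the widest lost regions were those at Foxa2 and Extl1, and the 3 widest gained ones lay at Fam3b, Ccn3 and Vangl1. Foxa2, a pioneer factor of endoderm, had 724 and 567 bp of open length over its 11 regions in KO, against 3637 and 6409 bp in WT. The groups did not overlap, but Foxa2 was named for a region lost in these same libraries. The widest gained region, chr16:97462992-97465232 next to Fam3b, a secreted cytokine-like protein of pancreatic islets, had 1781 and 1497 bp in KO libraries, against none in WT libraries. Vangl1, a membrane protein of planar cell polarity, had a gained region over its start of 1106 and 1272 bp in KO, against none in WT, with an H3K4me1 island in every H3K4me1 library.

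Libraries that the rule did not use separated the classes in the same direction. These were ATAC libraries of the same set whose cells received a guide against Smarca4, the gene of the remodelling ATPase Brg1, with 2 libraries per genotype. Of the lost regions, 9.0% and 1.8% had a peak in KO Smarca4 gRNA libraries, against 47.2% and 59.9% in WT Smarca4 gRNA libraries. Of the gained regions, 44.0% and 22.6% had one in KO, against 10.4% and 13.8% in WT. The groups did not overlap in either class. The difference was -48.2 points for lost, 21.2 points for gained and -10.9 points for kept regions, each with the smallest p that 2 against 2 can give (exact permutation test, two-sided p = 0.333, also after adjustment over the 3 classes). Kept regions had a peak in 90.9% and 77.8% in KO and in 94.4% and 96.2% in WT, so the KO lists were shorter here too. Relative to the kept regions of the same library, lost regions stood at -81.9 and -76.0 points in KO and at -47.1 and -36.3 points in WT. Gained regions stood at -46.9 and -55.2 points in KO and at -84.0 and -82.4 points in WT. Whether these cells came from the same animals as the empty-vector cells is not given in the sources used here. In the other ATAC set, 2 WT empty-vector libraries had peaks at 37.8% and 29.8% of lost, 13.3% and 9.98% of gained and 78.6% and 70.3% of kept regions.

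**Figure D2:**
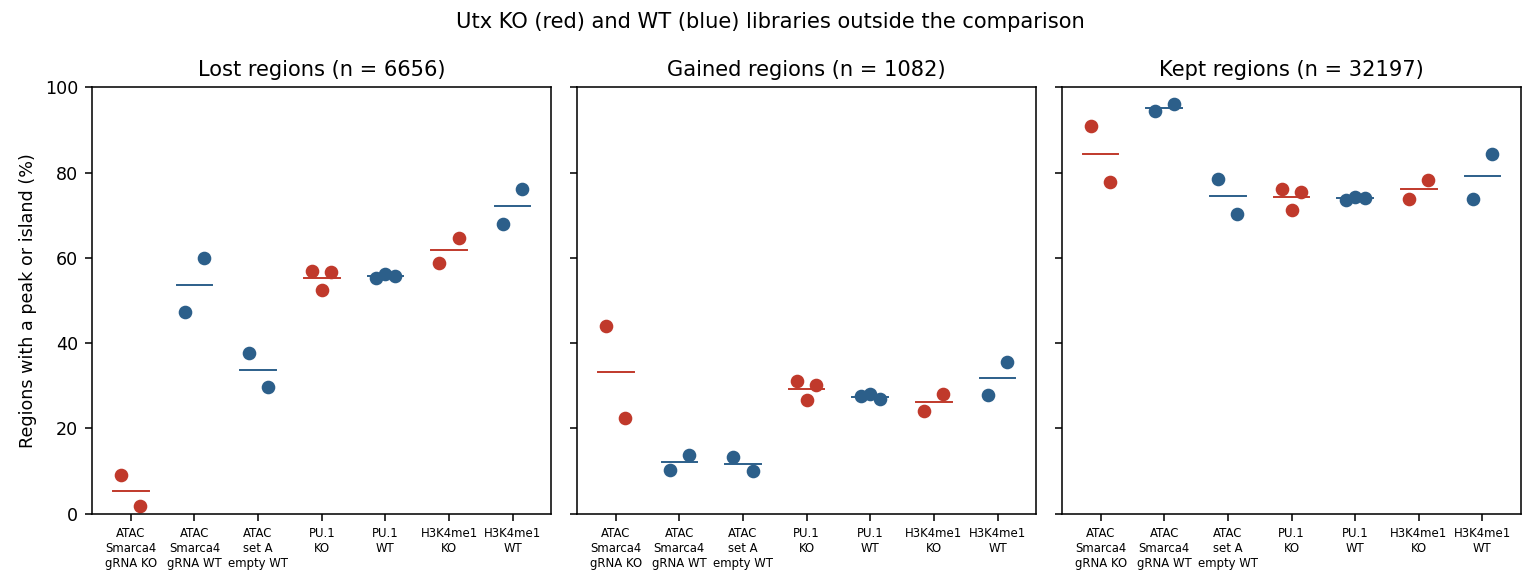
Percent of the 6656 lost, 1082 gained and 32197 kept regions with a peak or island in each library outside the comparison (points), with group means (lines), Utx KO in red and WT in blue. At lost regions the KO Smarca4 gRNA points sit at 9.0% and 1.8% and the WT ones at 47.2% and 59.9%, while PU.1 means are 55.4% in KO and 55.7% in WT.

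H3K4me1, the histone mark of enhancers, was found at most lost regions in both genotypes. Islands overlapped 61.7% ± 4.15 of lost regions in KO libraries and 72.1% ± 5.81 in WT libraries (SD, n = 2 each; exact permutation test, two-sided p = 0.333). At gained regions the share was 26.1% ± 2.94 in KO and 31.8% ± 5.49 in WT (exact p = 0.667), and at kept regions 76.0% ± 3.13 in KO and 79.1% ± 7.40 in WT (exact p = 0.667). The WT island lists were longer. Set against the kept regions of the same library, a measure chosen after the values were seen, lost regions stood at -15.02 and -13.57 points in KO and at -5.96 and -8.21 points in WT, without overlap of the groups. Gained regions stood at -49.79 and -50.06 points in KO and at -46.00 and -48.71 points in WT, also without overlap (exact permutation test, two-sided p = 0.333 in each class). Of the 26190 WT-held regions with an island in every H3K4me1 library 13.3% were lost, and of the 1743 WT-held regions with one in both WT and neither KO library 24.5%. Within classes of peak width the same shares were 48.3% and 50.2% in the narrowest, 23.7% and 25.1% in the second and 10.02% and 10.24% in the third. Of gained regions, 59.1% had no island in any H3K4me1 library, against 20.1% of lost and 12.7% of kept regions.

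PU.1 is the ETS factor encoded by Spi1 that directs myeloid and B cell fates. Its islands overlapped 55.4% ± 2.42 of lost regions in KO libraries and 55.7% ± 0.477 in WT libraries (SD, n = 3 each; exact permutation test, two-sided p = 1). The values were 29.4% ± 2.36 in KO and 27.5% ± 0.649 in WT at gained regions (exact p = 0.4), and 74.2% ± 2.70 in KO and 74.0% ± 0.405 in WT at kept regions (exact p = 1). The smallest p that 3 against 3 allows is 0.1, so no difference here could pass 0.05. Set against the kept regions of the same library, again a measure chosen after the values were seen, lost regions stood at -19.1, -18.6 and -18.9 points in KO and at -18.3, -18.2 and -18.3 points in WT. Gained regions stood at -44.8, -44.4 and -45.4 points in KO and at -46.0, -46.2 and -47.3 points in WT. On this measure the groups did not overlap in either class, with a KO minus WT difference of -0.61 points for lost and 1.64 points for gained regions (exact permutation test, two-sided p = 0.1 each). With island lists trimmed to equal length the difference in plain share at lost regions was -1.72 points (exact p = 0.1). The sign of the differences in plain share at lost and kept regions turned under some settings. No PU.1 island in any library was found at 61.6% of gained regions, against 33.3% of lost and 17.7% of kept regions. At Spi1 the 4 kept regions stayed open in every library, and its open length was 3484 and 3113 bp in KO, against 4774 and 4358 bp in WT (limma adjusted p = 0.510). Smarca4, at 1384 and 1409 bp in KO and 1508 and 1695 bp in WT, did not pass either (limma adjusted p = 0.384).

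Kept regions were also compared by width, on 29983 regions with exactly 1 peak in each library. Widths were centred per library on the log2 scale and fitted with limma. In KO, 234 regions (0.78%) were narrower and 63 (0.21%) wider at a Benjamini-Hochberg adjusted p under 0.05. Leaving out either WT library ended every call, as did no centring, while 4892 regions were under an unadjusted p of 0.05 in the fit of all 4 libraries. The narrower region with the smallest p covered the start of Grm6, a metabotropic glutamate receptor, at 269 and 293 bp in KO libraries, against 1660 and 1909 bp in WT libraries (log2 -2.47, SE 0.12, limma adjusted p = 0.00315). A region in Lhfpl2 was 308 and 211 bp wide in KO, against 2327 and 2281 bp in WT, and one at the start of Zyx, a focal adhesion protein, was 1404 and 1358 bp in KO, against 3350 and 3664 bp in WT. Peaks in Rap1gap2, a GTPase activator of Rap1 in platelets, measured 377 and 423 bp in KO, against 1452 and 1585 bp in WT. Those at Adgrg3, an adhesion receptor of neutrophils, measured 618 and 575 bp in KO, against 1863 and 1944 bp in WT. These 5 regions were chosen by p in this same fit, so the lack of overlap of their KO and WT widths follows from the choice. H3K4me1 and PU.1 islands were present at them in every library, as at 64.7% and 65.4% of all kept regions.

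Among wider regions, one 29712 bp from Mrtfb, which encodes a coactivator of serum response factor, measured 1483 and 1465 bp in KO, against 216 and 206 bp in WT (log2 2.99, SE 0.15, limma adjusted p = 0.00315). Despite that distance it overlapped an annotated promoter window. A region in Auts2, which encodes a partner of Polycomb complexes, measured 1901 and 1864 bp in KO, against 451 and 383 bp in WT. A region at Sync, an intermediate filament protein of muscle, was 899 and 913 bp in KO, against 257 and 251 bp in WT. A region nearest Icos, a T cell costimulator, but 101480 bp from it, was 1118 and 1058 bp in KO, against 383 and 465 bp in WT. One in Arhgap28 was 991 and 1099 bp in KO, against 253 and 360 bp in WT. None of these groups overlapped, which again follows from the choice by smallest p.

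Open length per gene, the summed peak bases of all regions nearest to a gene, was then fitted across 12170 of the 14707 autosomal genes with a region, those with a mean of at least 500 bp. Lengths were scaled so that every library covered the same total, and tested with limma on log2(length + 200 bp), which understates changes of genes with short open length. Open lengths given in bp for single libraries are unscaled unless called scaled, while log2 differences and limma p-values come from scaled lengths. The 2 can differ in direction, since WT libraries covered more. In KO, 405 genes (3.33%) were lower and 194 (1.59%) higher at an adjusted p under 0.05, so 67.6% of the calls were lower. Without scaling, 1679 were lower and 70 higher, 96.0% lower, and the median difference over all genes was -0.21, against 0.09 with scaling. Leaving out either WT library gave 0 calls. Without KO replicate 1 the fit called 151 genes lower and 35 higher, of which 98 and 33 were calls with all 4 libraries. Without KO replicate 2 it called 128 lower and 27 higher, of which 90 and 24 were. Before adjustment, 3656 genes lay under the same threshold with all 4 libraries. With lists trimmed to equal length, 264 genes were lower and 153 higher, of which 240 and 106 were among the calls with full lists.

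**Figure D3:**
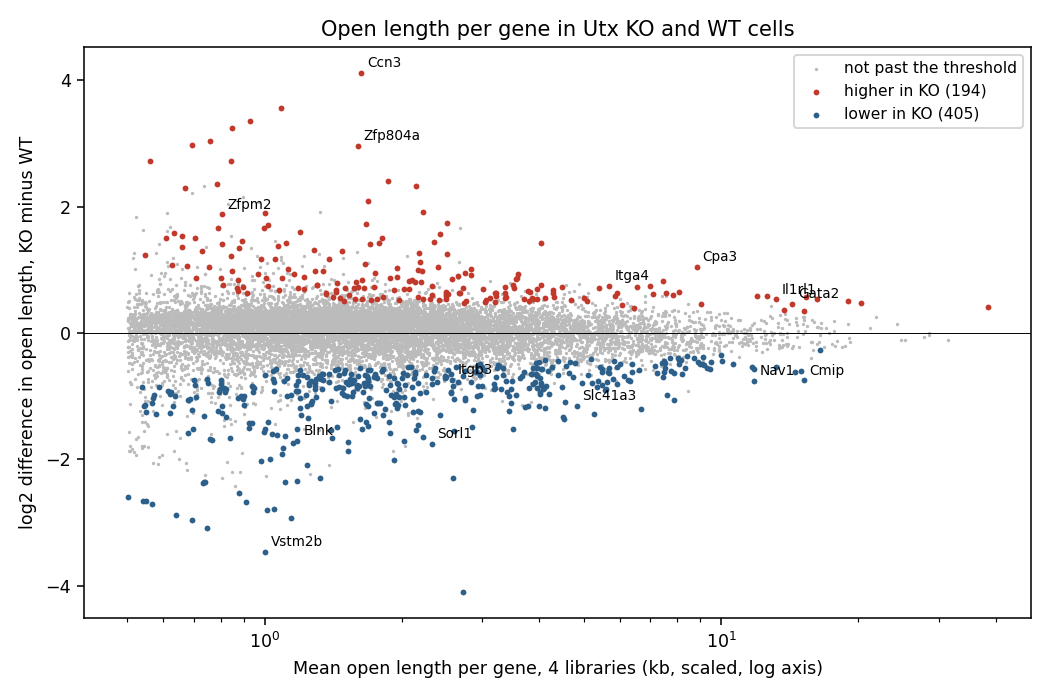
Log2 difference in scaled open length, Utx KO minus WT, against the mean scaled open length per gene in kb (log axis), for 12170 genes, with genes past the limma threshold in red (194 higher) and blue (405 lower). The heights of points with 0 bp in one group, such as Ccn3 and Vstm2b, depend on the 200 bp added.

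Of the 8 genes with the smallest p among those higher in KO, 4 had no peak in WT libraries, namely Ccn3, Tafa1, Dpyd and Vangl1. Ccn3, a secreted matrix-associated growth regulator, had 2805 and 2950 bp over 4 gained regions in KO libraries, against 0 and 0 bp in WT libraries (limma adjusted p = 0.0047). The widest of the 4, chr15:54745074-54746525, overlaps the gene and held H3K4me1 and PU.1 islands in every library of both genotypes. Zfp804a, a zinc finger protein, had 2699 and 2580 bp in KO, against 229 and 237 bp in WT (log2 2.96, SE 0.11, limma adjusted p = 0.0047). With regions within 50 kb of a gene alone its difference was 2.08 (limma adjusted p = 0.0518). Tafa1, a secreted chemokine-like protein of the brain, had 1884 and 1943 bp in KO, against 0 and 0 bp in WT. Dpyd had 1468 and 1522 bp in KO, and Vangl1 1535 and 1741 bp, both against 0 bp in each WT library. In each of these genes both KO libraries exceeded both WT libraries, which follows from their choice by smallest p.

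Dlg5, a scaffold of cell junctions, had 2426 and 2458 bp in KO, against 887 and 1000 bp in WT (log2 1.51, SE 0.09, limma adjusted p = 0.0110). Robo1, a receptor for Slit guidance cues, had 3808 and 3215 bp in KO, against 1126 and 1212 bp in WT (log2 1.74, SE 0.11, limma adjusted p = 0.0132). Gm11677, a predicted gene, had 5216 and 5321 bp in KO, against 2308 and 2363 bp in WT. Among genes with at least 8 KO-held regions, the gained share was highest at Gm11677 (41.7%), Atp2b1 (40.0%), Srgap2 (37.5%), Itga4 (36.4%) and Dip2c (33.3%). Itga4 encodes the alpha 4 integrin by which progenitors hold to marrow stroma, and had 6174 and 6468 bp in KO, against 4582 and 4727 bp in WT (log2 0.75, SE 0.08, limma adjusted p = 0.0223). Its start was open in all 4 libraries, and its 4 gained regions were 335 to 374 bp wide and lay around and inside the gene. Atp2b1, a plasma membrane calcium pump, had 6130 and 5818 bp in KO, against 4379 and 4630 bp in WT (log2 0.72, limma adjusted p = 0.0223). With regions within 50 kb of a gene alone, its difference was 0.04 (limma adjusted p = 0.813). Dip2c had 4453 and 4912 bp in KO, against 3742 and 3459 bp in WT (limma adjusted p = 0.0470). Srgap2 did not pass, with 3703 and 2944 bp in KO and 3047 and 4162 bp in WT (limma adjusted p = 0.357).

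**Figure D4:**
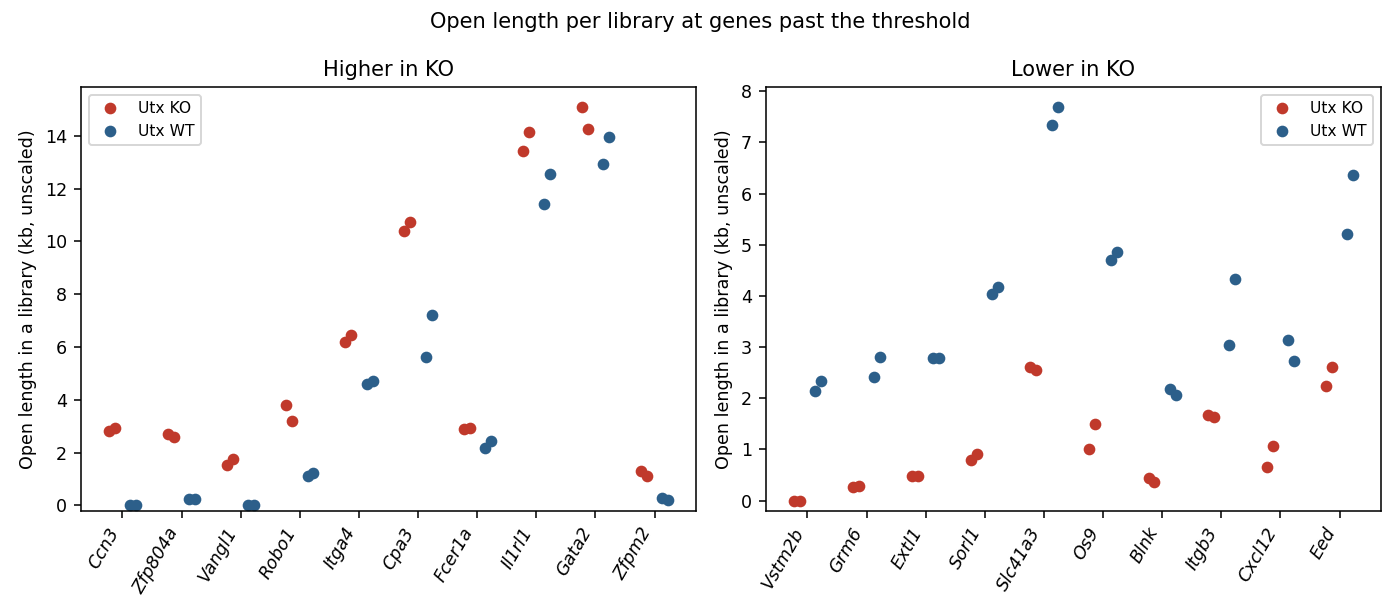
Unscaled open length in kb in each library at 10 genes higher (left panel) and 10 lower (right panel) in Utx KO by the limma fit, KO points in red to the left of WT points in blue. KO and WT points do not overlap at any of the 20 genes, which were picked from the calls of that fit.

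Among genes lower in KO, Vstm2b had 0 and 0 bp in KO libraries, against 2147 and 2329 bp in WT libraries (limma adjusted p = 0.00748), and none of its regions held an H3K4me1 or PU.1 island. Pkp1, a plakophilin of desmosomes, had 0 and 0 bp in KO, against 1693 and 1628 bp in WT. Grm6 had 269 and 293 bp in KO, against 2405 and 2798 bp in WT (log2 -2.29, SE 0.11, limma adjusted p = 0.00748). B3gnt7, a glycosyltransferase of keratan sulfate chains, had 200 and 200 bp in KO, against 2143 and 2289 bp in WT. Extl1, an exostosin-like glycosyltransferase, had 483 and 474 bp in KO, against 2788 and 2784 bp in WT. KO and WT libraries stood apart at each of these genes, which were likewise chosen by smallest p. Sorl1 lost 6 of its 8 WT-held regions and had 789 and 901 bp in KO, against 4033 and 4180 bp in WT (log2 -1.75, SE 0.11, limma adjusted p = 0.0110). Zic4, a zinc finger factor of the cerebellum, had 565 and 533 bp in KO, against 2388 and 2462 bp in WT. Slc35f3, a solute carrier, had 747 and 704 bp in KO, against 2582 and 3055 bp in WT.

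Among genes with at least 8 WT-held regions, the lost share was highest at Sorl1 (75.0%), Slc41a3 (70.0%), Cdhr3, Os9 and Eed (66.7% each). Slc41a3, a magnesium transporter, lost 7 of 10 regions and had 2610 and 2543 bp in KO, against 7330 and 7692 bp in WT (log2 -1.15, SE 0.08, limma adjusted p = 0.0137). Os9, a lectin that hands misfolded proteins to degradation in the endoplasmic reticulum, had 1016 and 1487 bp in KO, against 4693 and 4852 bp in WT (log2 -1.49, SE 0.18, limma adjusted p = 0.0243). Eed encodes the subunit of Polycomb repressive complex 2 that binds methylated lysine 27 of histone H3. It had 2233 and 2608 bp in KO, against 5204 and 6362 bp in WT (log2 -0.87, SE 0.11, limma adjusted p = 0.0276). The promoter region of Eed had nearly the same width in all libraries, 1697 and 1673 bp in KO and 1687 and 1681 bp in WT, and its 6 lost regions lay 17084 to 73887 bp from the gene. These regions are assigned to Eed by distance alone, and with regions within 50 kb of a gene its difference was -0.56 and did not pass (limma adjusted p = 0.0634). Cdhr3, a cadherin-related protein, had 1176 and 381 bp in KO, against 3464 and 3618 bp in WT, and did not pass (limma adjusted p = 0.0713).

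The genes of 16 lists, 325 in all with 323 found in the annotation, were read against the background of 3.33% lower and 1.59% higher. Of 18 tested mast cell and basophil genes 4 were higher in KO and 0 lower, with a list median of 0.20 on the log2 scale, against 0.09 over all genes. Medians of the 16 lists ran from -0.26 for granulocyte to 0.23 for B cell genes, with housekeeping genes at 0.21. Of the 140 WT-held regions of the mast cell and basophil genes 9.29% were lost, against 15.6% of all and 9.26% for housekeeping genes. Of their 130 KO-held regions 6.92% were gained, against 3.12% of all and 8.33% for T and NK cell genes. Cpa3, the carboxypeptidase of mast cell granules, had 10405 and 10720 bp in KO, against 5612 and 7209 bp in WT (log2 1.04, SE 0.08, limma adjusted p = 0.0168). Its 4 gained regions all lay inside the gene. Fcer1a, the alpha chain of the IgE receptor, had 2900 and 2921 bp in KO, against 2162 and 2444 bp in WT (log2 0.63, SE 0.08, limma adjusted p = 0.0315). Il1rl1, the receptor for interleukin 33, had 13424 and 14142 bp in KO, against 11400 and 12539 bp in WT (log2 0.53, SE 0.06, limma adjusted p = 0.0221).

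Gata2, a transcription factor of stem cells and mast cells, had 15083 and 14260 bp in KO, against 12933 and 13945 bp in WT (log2 0.46, SE 0.05, limma adjusted p = 0.0248). It had no lost or gained region, and its KO and WT lengths did not overlap. Hdc, the histamine-forming enzyme, did not pass, with 1432 and 1234 bp in KO and 2430 and 2757 bp in WT (limma adjusted p = 0.0512). Without scaling, Cpa3 was the 1 gene of the list still higher, Hdc, Il4, Il13 and Slc18a2 were lower, and the list median was -0.12. With lists trimmed to equal length the same 4 genes were higher and 0 lower. Without either KO library Cpa3 alone passed, and without either WT library 0 did. Over these 4 fits the log2 differences ran from 0.95 to 1.14 for Cpa3, 0.62 to 0.64 for Fcer1a, 0.49 to 0.57 for Il1rl1 and 0.42 to 0.49 for Gata2.

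**Figure D5:**
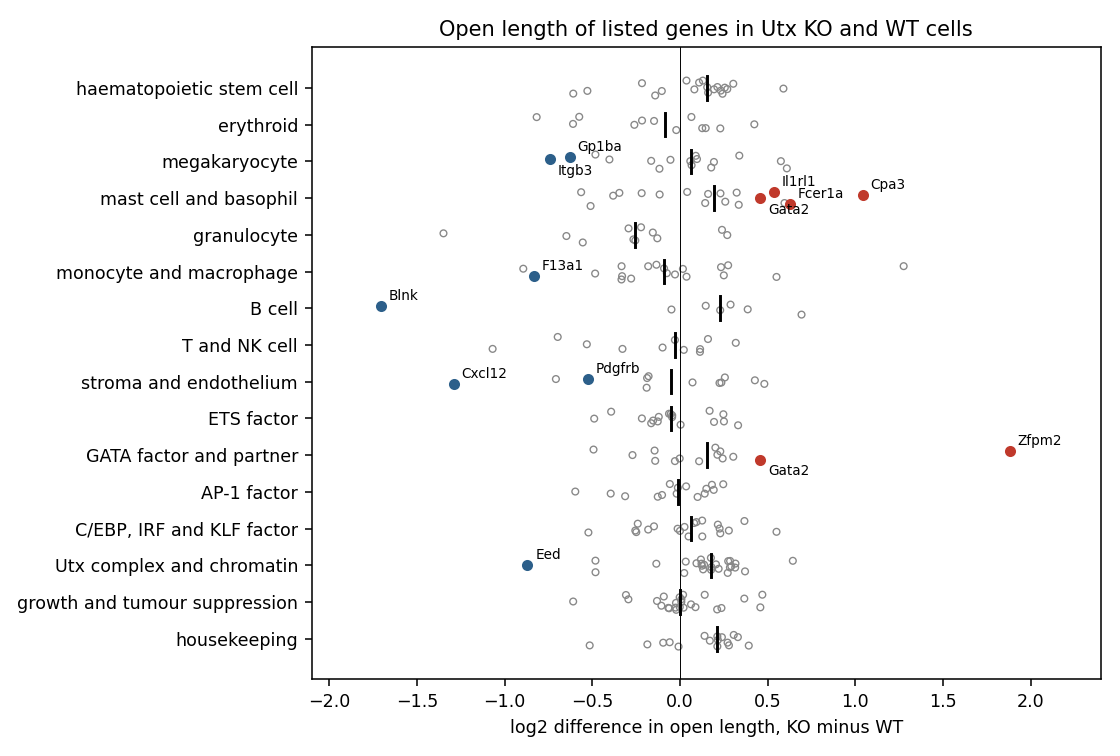
Log2 difference in scaled open length, Utx KO minus WT, for each tested gene of 16 lists (points), with list medians (black bars). Filled points passed the limma threshold, red when higher and blue when lower in KO, and the 4 red points of the mast cell and basophil list are Cpa3, Fcer1a, Il1rl1 and Gata2.

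Of 14 GATA factors and partners 2 were higher, Gata2 and Zfpm2, and 0 lower. Zfpm2, a cofactor of GATA4 in heart and gonad, had 1320 and 1117 bp in KO, against 297 and 213 bp in WT (log2 1.88, SE 0.18, limma adjusted p = 0.0214), and with lists trimmed to equal length the difference was 2.27 (limma adjusted p = 0.0582). With regions within 50 kb of a gene alone it was 2.06 (limma adjusted p = 0.0647). Runx1, the master factor of definitive haematopoiesis, lost 7 regions while 32 were kept, and had 25047 and 25388 bp in KO and 28668 and 35465 bp in WT (limma adjusted p = 0.983). Of 16 megakaryocyte genes 2 were lower, Itgb3 and Gp1ba, and 0 higher, with a list median of 0.06, against 0.09 over all genes. Of their WT-held regions 17.7% were lost, near the 15.6% of all. Itgb3, the beta 3 integrin of platelets, had 1665 and 1628 bp in KO, against 3035 and 4336 bp in WT (log2 -0.74, SE 0.13, limma adjusted p = 0.0478). Gp1ba, a subunit of the platelet receptor for von Willebrand factor, had 1004 and 994 bp in KO, against 1927 and 2226 bp in WT (log2 -0.63, SE 0.09, limma adjusted p = 0.0348).

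Single genes of other lists were lower. Blnk had 432 and 358 bp in KO, against 2179 and 2070 bp in WT (log2 -1.70, SE 0.14, limma adjusted p = 0.0168), the 1 call among 7 B cell genes. F13a1, a subunit of coagulation factor XIII made by monocytes and platelets, was the 1 call among 19 monocyte and macrophage genes, at 595 and 498 bp in KO, against 1288 and 1517 bp in WT. Cxcl12 and Pdgfrb were lower among 12 genes of stroma and endothelium. Cxcl12, the chemokine that retains progenitors in marrow, had 659 and 1067 bp in KO, against 3146 and 2721 bp in WT, and Pdgfrb, a growth factor receptor of stromal cells, 2094 and 2070 bp in KO, against 3668 and 4105 bp in WT. With lists trimmed to equal length Blnk, Gp1ba and Eed passed. The other 4 did not pass but had log2 differences of -0.66 for Itgb3, against -0.74 with full lists, -0.73 for F13a1, against -0.83, -0.51 for Pdgfrb, against -0.52, and -0.58 for Cxcl12, against -1.29. Their limma adjusted p ran from 0.0515 for F13a1 to 0.219 for Cxcl12. With regions within 50 kb of a gene alone, F13a1 was at -0.39, Cxcl12 at -1.78 and Itgb3 at -0.74, and none of these passed (limma adjusted p = 0.133, 0.113 and 0.0518). Eed was the 1 call among 26 genes of the Utx complex and chromatin.

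No gene passed in either direction among 19 stem cell, 12 erythroid, 11 granulocyte, 11 T and NK cell, 17 ETS, 15 AP-1, 20 C/EBP, IRF and KLF, 25 growth and tumour suppression and 16 housekeeping genes. Before adjustment 8 stem cell, 3 erythroid, 3 granulocyte, 2 T and NK cell, 4 ETS, 4 AP-1, 4 C/EBP, IRF and KLF, 7 growth and 4 housekeeping genes lay under 0.05 in limma. Over all genes, 3656 of the 12170 tested did, and whether any list departs from that share was not tested. Their lost shares ran from 9.26% for housekeeping to 18.8% for granulocyte genes, around the 15.6% of all regions. Among stem cell genes Mecom, a regulator of stem cell maintenance, lost 4 and gained 1 of its 26 regions. It had 9586 and 8826 bp open in KO and 10306 and 12426 bp in WT (log2 0.04 after scaling, limma adjusted p = 0.741). Erg, an ETS factor of stem cells, lost 3 regions and had 11443 and 12000 bp in KO and 12174 and 13688 bp in WT. Scaled, its lengths were higher in KO, at 12922.9 and 13625.2 bp, against 11572.6 and 11582 bp in WT (log2 0.19, SE 0.05, limma adjusted p = 0.102). Meis1, a homeodomain cofactor, had 20822 and 21118 bp in KO and 20108 and 24397 bp in WT, with overlapping libraries before scaling. Scaled, the libraries did not overlap, at 23514.9 and 23978.1 bp in KO, against 19114.7 and 20643.4 bp in WT. Its difference did not pass (log2 0.26, SE 0.05, limma adjusted p = 0.0572). Bcl2, which blocks cell death, lost 5 of its 18 WT-held regions and had 7020 and 6526 bp in KO, against 9941 and 11157 bp in WT (limma adjusted p = 0.0681). Jun, an AP-1 subunit, lost 5 of its 23 WT-held regions and had 12676 and 13852 bp in KO and 15647 and 18383 bp in WT (limma adjusted p = 0.853).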

How the data were processed

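ATAC-seq peaks of 4 libraries were used, with islands of 10 ChIP-seq libraries and 6 further ATAC libraries for comparison. Per the submitters' processing notes the tools were Bowtie, Bowtie2, SICER and MACS2 with build mm10, with no versions or roles, so the caller of each list is not given in the sources used here. The deposited ATAC lists hold start and end of each interval and no score, and the islands carry a score as deposited by the authors, used only to rank islands within a list.

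Members and gene lists were chosen with earlier results of these data known. Peaks were merged where they overlapped or touched, on autosomes, and a library held a region at any overlap. Regions went to the nearest of 21900 protein-coding genes of RefSeq (GRCm38.p6), which gave no strand, so both gene ends were used; 17492 had a promoter window. Named genes were those with the smallest p (8 per direction), the highest share lost or gained (5 each), the widest lost and gained regions (3 each), the narrower and wider kept regions with the smallest p (5 each), up to 2 per list with most lost or gained regions, and Kdm6a, Smarca4, Spi1, Gata1 and Gata2. Some items are not reported here. Nox4 and genes of the runs were added after their values were seen. Fits used limma 3.58.1 in R 4.3.3 with a trend, and Benjamini-Hochberg adjustment over all features at 0.05. Single values used exact permutation tests in scipy 1.17.1, with pandas 2.3.3, numpy 2.4.6, matplotlib 3.10.9 and Python 3.11.15. The rules were tested on simulated data. Alternatives covered list length, overlap, merging, scaling, filters, the added length and each library left out.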

Additional observations from a re-analysis of the deposited data

How the results depend on the processing

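Peak counts give no depth, and 2 libraries per group allow no exact p below 0.333, so counts of calls are bound to the spread of 4 libraries. Of 377 values of 33 named genes under other settings, 263 kept direction and side of the threshold, 114 kept direction but no longer passed, and 0 reversed. All 33 were calls of the main fit, and settings such as the replicate block leave the difference itself unchanged, so reversals were unlikely beforehand. Without WT replicate 1 or 2 all 33 no longer passed, and before adjustment 1348 or 1390 genes were lower and 2021 or 1581 higher, with 2025 or 2128 kept regions narrower and 4092 or 2409 wider.

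Using the wider 50% of each list gave 3031 lost, 311 gained and 16698 kept regions, and trimmed lists 2905 lost and 2722 gained. Leaving out a library gave 8450 to 11433 lost and 1582 to 2285 gained. Of kept regions 0 to 941 were then narrower and 0 to 397 wider in KO; 0 and 0 without centring, with 4948 narrower and 481 wider before adjustment; and 28 wider after quantile normalization. Genes numbered 0 to 151 lower and 0 to 35 higher without 1 library, 1679 and 70 without scaling, 251 and 105 without the length filter, 301 higher at 2000 bp or more, and 264 lower with trimmed lists. At 5 kb from gene ends the shares were 20.5% gained, 30.0% lost and 47.8% kept.

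For PU.1 the KO minus WT difference turned at kept regions, to -0.633 points at 50% overlap and -0.703 with trimmed lists, and without 1 library it lay between -0.676 and 1.79 at kept and between -1.15 and 1.02 at lost regions. For H3K4me1 at kept regions it turned to 0.680 with trimmed lists and lay between -8.35 and 2.12 without 1 library.

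Deviations of width in the same-numbered pairs correlated at -0.0109. This value cannot tell if same-numbered libraries share an animal, culture or batch, and the labels do not say. With the replicate block 1045 kept regions were narrower and 602 wider in KO, and 821 genes lower and 462 higher. Same-numbered pairs gave 13802 and 13721 lost and 3638 and 3153 gained regions. The cause of none of these differences was tested, apart from fewer libraries making lost and gained classes larger by construction.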

Other observations

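Lost and gained regions also fell in runs, counted as 3 or more in a row along the regions held by both WT libraries (lost) or by both KO libraries (gained). There were 30 runs of gained regions with 101 members and 197 runs of lost regions with 650. The longest gained run, 6 regions over 626 kb, joined Nox4 and Grm5, a metabotropic glutamate receptor of neurons. Runs of 5 gained regions lay over 703 kb between Samd12 and Tnfrsf11b, the decoy receptor of RANKL, and over 611 kb from Nup35 to Zfp804a. The longest lost run held 6 regions over 145 kb at Phactr3, a regulator of protein phosphatase 1 and actin. Runs of 5 lost regions lay at Nav1 and Csrp1, at Skap1, a T cell adaptor, at Rmi2 and Litaf, and across Cyp4f genes of fatty acid hydroxylation over 224 kb. Lost regions are more numerous, so the numbers of runs are not compared between classes.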
